A study of Mus musculus with 8 samples.

Results

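The cytosolic ribosomal proteins are the protein components of the ribosome that works in the cell body outside mitochondria, with the Rpl genes and the stalk genes Rplp0, Rplp1 and Rplp2 coding for the large subunit and the Rps genes and Rpsa for the small subunit. Members were all non-control array probes whose gene symbol was Rpl or Rps followed by a number, with at most the suffix a, l or x, or was one of the 4 names Rplp0, Rplp1, Rplp2 and Rpsa; S6 kinases and pseudogenes were not members. The rule itself used no measured value, but the members were chosen with earlier results of these data known. The rule gave 80 genes, read by 167 of the 55681 probes on the array, with 49 genes of the large subunit and 31, with 60 of the probes, of the small subunit. Of these, 162 probes of 77 genes (46 large and 31 small) were bright enough to be tested. Of the 83 matching symbols in the RefSeq table, 2 were pseudogenes, of which Rps4l had a probe that was left out, and Rpl37 and Rpl6l had no probe that could be named here.

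RNA came from a frozen section across the brain of 4 mice with both copies of Pus1 mutated (homozygous mutant) and of 4 wild-type mice. All 8 mice were 14 to 16 weeks old and of C57BL/6J background after 5 generations of backcrossing, and no agent was given. The series title calls the mutation a knockout of the gene. The mutation was carried by the whole animal, not by a chosen cell type. The labelling reactions took 200 ng of RNA each. On each of the 4 arrays, which read 2 colours, a mutant was set against a wild type of its own sex, and these mice are called a pair. Females made up pairs 1 and 2, males pairs 3 and 4. The mutant carried the red dye Cy5 in pairs 1 and 3, but the green dye Cy3 in pairs 2 and 4.

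The product of Pus1 is an enzyme, pseudouridine synthase 1, that turns certain uridines of transfer RNAs and other RNAs into pseudouridine. A ribosome holds 1 copy of most of its proteins, and cells keep their supply balanced, so ribosomal protein mRNAs are abundant in nearly every tissue and usually move together. Most of these mRNAs begin with a 5′ terminal oligopyrimidine tract (TOP), a C followed by a run of pyrimidines, through which the kinase mTOR and the RNA-binding protein Larp1 regulate their translation and stability. In the brain, ribosomal protein mRNAs are found in all neurons and glia and also in dendrites and axons.

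The start of the mRNA is the regulatory sequence that these genes share, so the windows around the RefSeq start (15 bases before it and 15 from it) were read for members described below. Of 72 RefSeq windows (GRCm38.p6) found for 60 of the member genes, 14 windows of 14 genes had C followed by 4 pyrimidines (C or T) exactly at the annotated start on the gene's own strand, or 19.4%. Over all 32851 windows of the table the share was 2.51%. With the start allowed to lie within 5 bases of the annotated one, the shares were 43.1% of member windows and 18.3% of all windows. The genes below with a tract at the annotated start are shown first and 2 with none there last, with the tract in capitals; the first base of the tract is the annotated start.
Rpl14 (chr9:120571502-120571531, plus strand): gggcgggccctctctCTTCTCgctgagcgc
Rpl32l (chr10:20208424-20208453, plus strand): aaataaaatgaccagCTTCTTCCTTggtgc
Rpl38 (chr11:114668565-114668594, plus strand): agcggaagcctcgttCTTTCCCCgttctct
Rplp2 (chr7:141447636-141447665, plus strand): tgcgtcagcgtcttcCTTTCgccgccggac
Rps6 (chr4:86857353-86857382, minus strand): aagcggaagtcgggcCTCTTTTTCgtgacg
Rps15a (chr7:118116133-118116162, minus strand): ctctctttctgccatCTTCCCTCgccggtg
Rps21 (chr2:180257364-180257393, plus strand): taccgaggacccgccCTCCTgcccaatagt
Rps27 (chr3:90213634-90213663, minus strand): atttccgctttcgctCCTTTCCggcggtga
Rpl37a (chr1:72711245-72711274, plus strand): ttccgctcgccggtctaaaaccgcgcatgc
Rpl41 (chr10:128549154-128549183, minus strand): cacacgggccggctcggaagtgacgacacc
The tracts differ in length and in their mix of C and T. For the 2 genes without one, the letters searched for are not at the annotated start of that window, which is all that can be read from it.

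Across the whole array, 33300 probes were tested, which means that 3 or more of the 4 mice of a genotype were marked as well above background. The targeted gene Pus1 fell by 2.59 in the mutant on the log2 scale (mean of -2.07, -2.94, -2.61 and -2.75 in pairs 1 to 4, limma adjusted p = 0.0364). All 10 brain markers looked at were well above background in the 8 mice, but markers of brain regions differed strongly within pairs: the median log2 ratio of 12 excitatory neuron markers was -2.32 in pair 2, that of 9 striatal markers 1.44 in pair 1 and -1.28 in pair 4, and that of 12 cerebellar markers was above 0 in all 4 pairs (0.52, 0.33, 0.68 and 1.52). Such markers differ with the makeup of a section, and fewer cells of a type cannot be told apart from less RNA per cell.

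Whether ribosomal protein mRNAs differ in brain lacking normal Pus1 was read from the log2 ratio of mutant over wild type within each pair, a gene being represented by its brightest tested probe. The ribosomal protein genes stood close to equal amounts in both genotypes. The median over the 77 genes of the mean ratio was -0.01, and over all tested probes it was 0.00. By pair the member median was 0.05, -0.01, 0.05 and -0.11, so no direction was shared by the 4 pairs. The gene means ran from -0.24 for Rps14 to 0.15, with 35 above and 42 below 0. None of the 162 member probes passed an adjusted p of 0.05 in limma (background 0.00901% of all tested probes). Without adjustment, 1 member probe was higher at p under 0.05 (background 3.04%) and 0 were lower (background 3.01%), and the count of adjusted calls stayed at 0 under every alternative processing that was run. The median ratio did depend on the normalization: with median centring in place of loess it was -0.13, or -0.09 relative to the median of all tested probes.

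The data also bound how large a difference could be in the ratios as normalized by loess. The 95% interval of the mean ratio lay within 0.5 of 0 on the log2 scale for 155 of the 162 member probes, or 95.7% (background 66.7%), and within 1 of 0 for all 162 tested probes (background 95.8%). By gene it lay within 0.5 of 0 for 46 of 46 large subunit genes and 29 of 31 small subunit genes (background 64.8% of named genes); the 2 exceptions were Rps2 and Rps14. The median interval reached 0.27 to either side of the mean, or 1.2-fold. The lowest bound of any gene was -0.70 (Rps2, a protein at the mRNA entry channel) and the highest 0.47 (Rps27l, a paralogue of Rps27). Without the dye term in the fit, 150 probes lay within 0.5 of 0, or 92.6% (background 57.6%). A mean beyond 0.25 in either direction was found in 3 member probes (background 16.2%), and a ratio beyond 0.5 in any single pair in 14 member probes, or 8.64% (background 42.7%). Member spots are brighter than most on the array, and the part of brightness in these narrow ranges was not tested. The bounds hold for loess only. With median centring the member median was -0.13, and the intervals were not read in that setting.

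**Figure D1:**
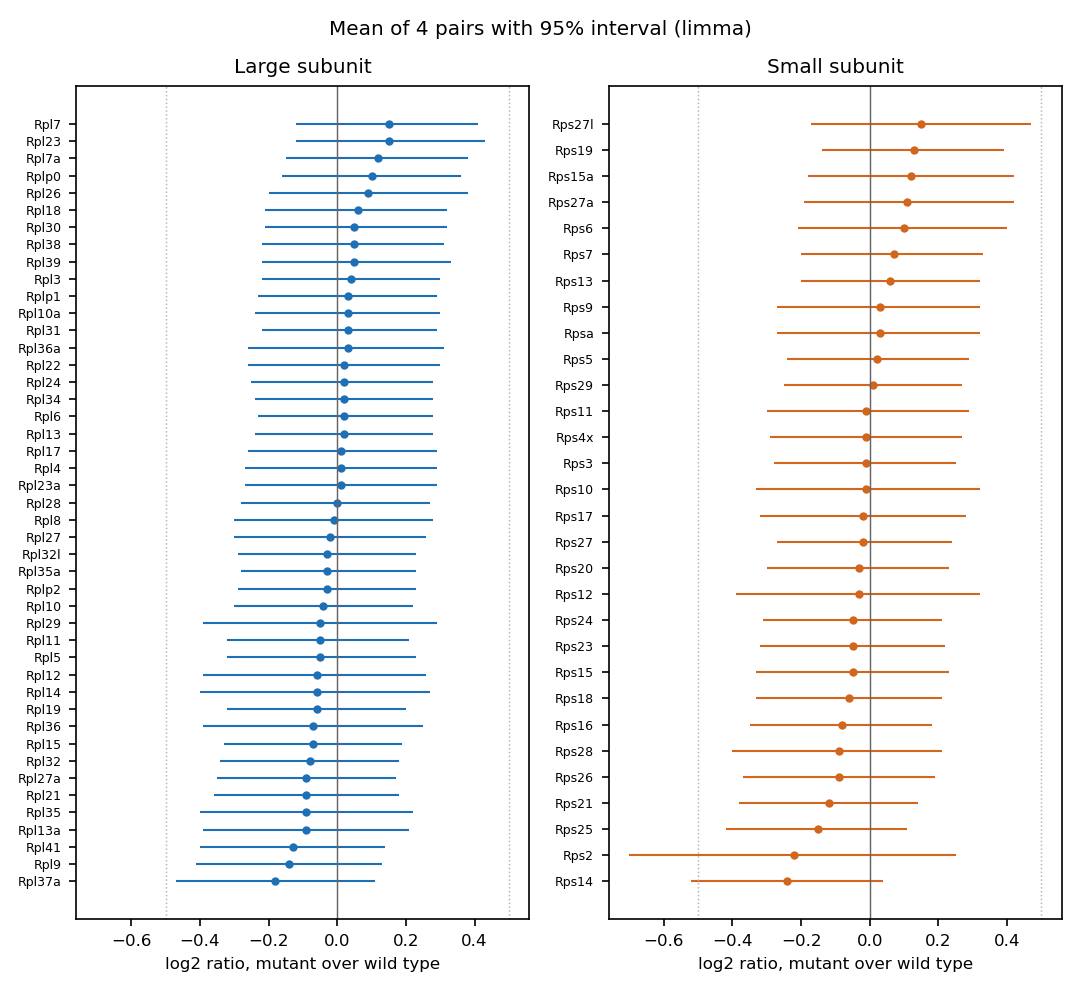
Mean log2 ratio of mutant over wild type over 4 pairs (point) with its 95% interval from limma (line), for large subunit genes (left) and small subunit genes (right), sorted by mean; dotted lines mark -0.5 and 0.5. Every interval drawn holds 0, and the intervals of Rps14 and Rps2 alone reach past -0.5.

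Large and small subunit genes had nearly the same medians. The median of the gene means was 0.00 for the large and -0.01 for the small subunit. By pair the large subunit median was 0.07, -0.02, 0.05 and -0.11, and the small subunit median 0.03, 0.05, 0.01 and -0.11. The large minus small difference was 0.05, -0.07, 0.04 and 0.00 in pairs 1 to 4, with a mean of 0.01 ± 0.05 (SD, n = 4 pairs). Its sign changed between pairs and its mean was smaller than its spread. The scatter of genes within a pair was wider for the small subunit in all 4 pairs, with SDs of 0.171, 0.183, 0.206 and 0.204 for the large subunit and 0.183, 0.314, 0.239 and 0.229 for the small, the widest being pair 2, where Rps14 stood at -1.0 and Rps2 at -0.70. Pooling the subunits gave SDs of 0.175, 0.243, 0.219 and 0.213, against 0.279, 0.633, 0.395 and 0.329 over all tested probes. The 77 mitochondrial ribosomal protein genes tested, which build the separate ribosome of mitochondria, had a median ratio of -0.00 and pair medians of -0.06, 0.11, -0.04 and 0.01.

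**Figure D2:**
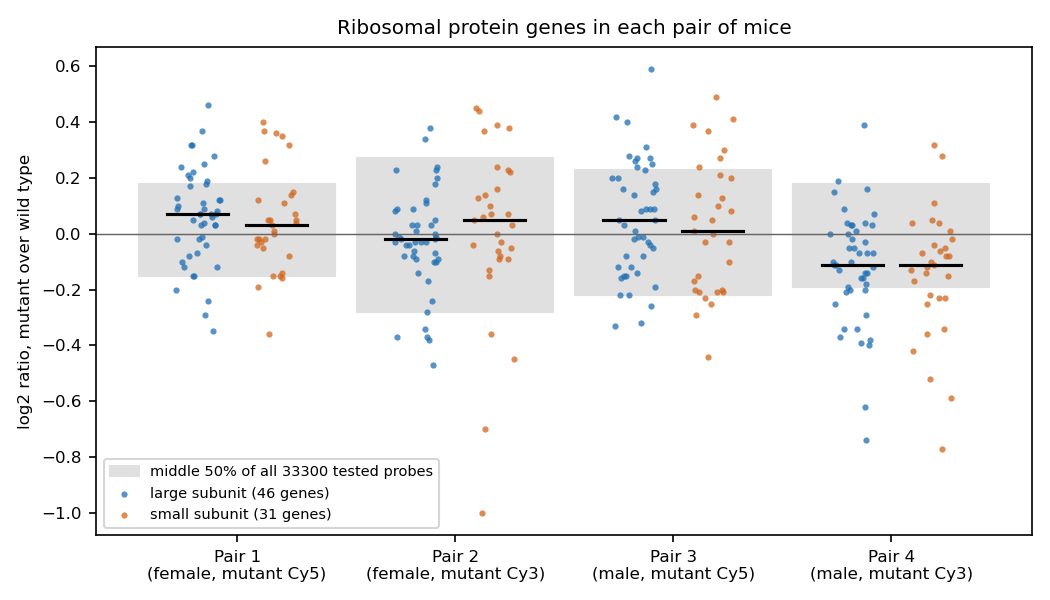
Log2 ratio of mutant over wild type (vertical axis) of each ribosomal protein gene in each of the 4 pairs of mice, large subunit blue and small subunit orange, with black bars at the medians and grey boxes over the middle 50% of all tested probes. The medians of the subunits lie within 0.07 of each other in every pair, and both are lowest in pair 4 at -0.11.

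The levels of the single mice gave the same picture. Each mouse's deviation from the gene's mean over the 8 mice had a median over the member genes of -0.05, 0.02, 0.01 and -0.04 in mutants 1 to 4 and -0.08, 0.03, -0.03 and 0.10 in wild types 1 to 4, on the log2 scale. The genotypes overlapped, and wild type 4 was the highest and wild type 1 the lowest of the 8 mice. The wild-type levels thus spanned more than the mutant levels did. Each level also carries the array and dye of that mouse, with no dye term taken out. Wild types 2 and 4 carried the red dye and the other wild types the green dye, with the mutants in reverse. The part of array and dye in the wider wild-type span was not tested. Over all tested probes the same deviation ran from -0.08 in wild type 1 to 0.04 in wild types 2 and 4, so wild type 1 was low over all probes too, while in wild type 4 the members stood higher than all probes.

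Few genes kept 1 sign in all pairs. Of the 77 genes, 2 were above 0 in every pair, or 2.6% (background 6.25% of named genes). Below 0 in every pair were 5, or 6.49% (background 5.44%). Counted by probes, 10 were above, or 6.17% (background 6.05%), and 13 below, or 8.02% (background 5.75%). The share of genes above 0 was lower than that of the array, and the other shares were near or somewhat above it.

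The 2 genes above 0 in every pair belong to the large subunit. Rpl7a, an RNA-binding protein of the large subunit that binds a kink-turn fold, had ratios of 0.03, 0.09, 0.18 and 0.16, mean 0.12 ± 0.07 (SD, n = 4 pairs). Its other tested probes had means of -0.02, 0.05 and 0.06, and of these only the probe at 0.06 was above 0 in every pair. The gene did not pass the test, with limma adjusted p-values between 0.643 and 1 over all alternatives, and its mean was below 0 with median centring in place of loess.

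The 5 genes below 0 in every pair were Rpl37a and Rpl41 of the large subunit and Rps16, Rps21 and Rps25 of the small subunit. Rpl37a, a zinc-binding protein, stood at 16.52, 16.74, 16.64 and 16.68 in the mutants and at 16.62, 16.78, 16.86 and 17.05 in the wild types (normalized log2 intensity). Its ratios of -0.10, -0.03, -0.22 and -0.37 gave a mean of -0.18 ± 0.15 (SD, n = 4 pairs; limma adjusted p = 0.852), with overlapping groups and the widest gap in pair 4. Rps25, a small subunit protein needed for initiation at some viral internal entry sites, stood at 15.32, 15.30, 15.56 and 15.41 in the mutants and at 15.50, 15.45, 15.59 and 15.66 in the wild types. Its ratios were -0.19, -0.15, -0.03 and -0.25, mean -0.15 ± 0.09 (limma adjusted p = 0.858), and the groups overlapped because mutant 3 lay among the wild types. A dimmer probe of Rps25 had a mean of -0.00 and stood at 0.35 in pair 2.

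Rps21, whose mRNA start is shown above, was the 1 gene whose brightest probe did not overlap between genotypes (background 0.262% of named genes). Its level was 14.69, 14.73, 14.67 and 14.64 in the mutants and 14.73, 14.81, 14.87 and 14.79 in the wild types, so the groups touch at the second decimal. The mean ratio was -0.12 ± 0.07 (SD, n = 4 pairs; limma adjusted p = 0.88). Rpl41, which encodes a very short, basic peptide, had ratios of -0.07, -0.03, -0.16 and -0.25, and Rps16, a protein whose tail reaches the peptidyl site, had ratios of -0.02, -0.06, -0.17 and -0.08. The other tested probes of Rps16 were above 0 in pair 2, at 0.13 and 0.24. The fitted 95% interval held 0 in each of the 5 genes, and ran from -0.47 to 0.11 for Rpl37a, whose mean was the lowest of them.

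**Figure D3:**
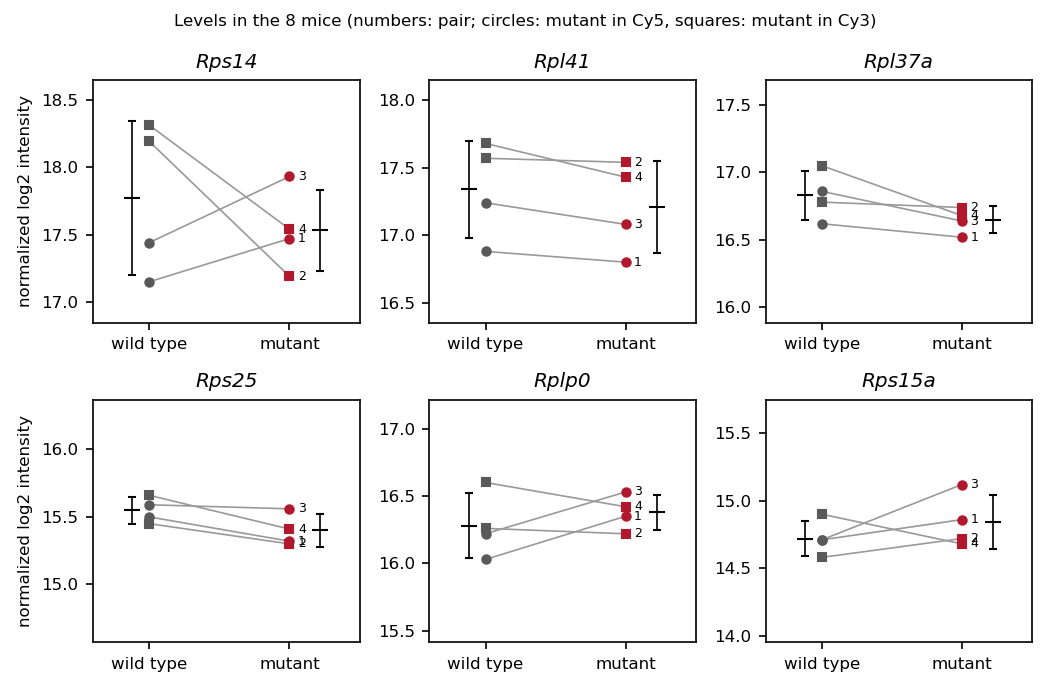
Normalized log2 intensity of 6 ribosomal protein genes in wild-type (grey) and mutant (red) mice; lines join the mice of a pair, numbers give the pair, circles are pairs with the mutant in Cy5 and squares pairs with the mutant in Cy3, and black marks give the mean and SD of 4 mice. Rps14 crosses between pairs, from 0.49 in pair 3 to -1.0 in pair 2, while the lines of Rpl37a, Rpl41 and Rps25 all slope downward by at most 0.37.

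Of the 5 genes that varied most between pairs, 4 were higher in Cy5 on every array. Rps14, a small subunit protein whose loss is known from the human 5q- syndrome, was the brightest member. It stood at 17.47, 17.19, 17.93 and 17.54 in the mutants and at 17.15, 18.19, 17.44 and 18.31 in the wild types. In every pair the mouse labelled with Cy5 was the higher, which gave ratios of 0.32, -1.0, 0.49 and -0.77, a mean of -0.24 with an SD of 0.75 over 4 pairs, and a limma adjusted p of 0.811. The dye term of the fit, Cy5 minus Cy3, was 0.64 for Rps14 on the log2 scale.

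The same order, with Cy5 above Cy3 on all 4 arrays, was found for 22 of the 77 genes, or 28.6% (background 12.6% of named genes), and the opposite order for 8 genes, or 10.4% (background 13.7%). Counted by probes, the excess was smaller, with Cy5 above Cy3 in 29 of 162, or 17.9% (background 12.2%). The opposite order was found in 23 probes, or 14.2%, which was also above its background share. Rps24, one of the genes mutated in human Diamond-Blackfan anaemia, had ratios of 0.40, -0.45, 0.37 and -0.52. Rpl23, which can bind the p53 regulator Mdm2, had 0.46, -0.10, 0.59 and -0.34, and Rpl14 had 0.37, -0.17, 0.28 and -0.74. These are among the 5 genes of widest spread over pairs, with SDs of 0.51, 0.44 and 0.51. Rpl3, a protein near the peptidyl transferase centre, ran the other way with -0.29, 0.38, -0.32 and 0.39 and a mean of 0.04. The dye term had an unadjusted limma p under 0.05 in 7 genes brighter in Cy5, or 9.09% (background 7.68%), and in 1 brighter in Cy3 (background 7.33%), and it passed the adjusted threshold in 0 genes (background 0.0%). Rps2 completes the 5 widest genes and did not follow the dyes: its ratios were -0.08, -0.70, -0.44 and 0.32, so pair 4 alone was above 0, and without pair 4 its mean was -0.48 (limma adjusted p = 0.14). Dye orientation coincides with the split of pairs 1 and 3 from pairs 2 and 4, and a difference between these sets of mice cannot be told apart from it in the ratios.

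Across the 77 member genes the ratios of pairs 1 and 3 had a Pearson correlation of 0.651 and those of pairs 2 and 4 of 0.421, while the 4 comparisons between pairs of opposite orientation gave -0.48, -0.565, -0.335 and -0.555. These correlations run across genes, which are not independent replicates, and the 2 ratios share no mouse but share a dye order. Over all 33300 tested probes they were 0.343 and 0.255 within an orientation and -0.389, -0.104, -0.136 and 0.0701 between orientations. Ratios of the ribosomal protein genes were thus alike within a dye orientation and opposed between orientations.

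Ratio also went with brightness. Across the 77 genes the Pearson correlation of the ratio with brightness, the mean log2 intensity of both channels, was 0.479, -0.36, 0.216 and -0.545 in pairs 1 to 4. Over all tested probes it lay between -0.0302 and 0.00703. Loess levels the ratio against brightness over all spots of an array, so this near-0 range is set by the normalization and is no background for the members. The 35 genes with brightness of 16 or more had medians of 0.12, -0.04, 0.10 and -0.21 by pair, and the 42 dimmer genes -0.02, 0.06, -0.03 and -0.04. Other tested probes of brightness 16 or more, 441 in number, were likewise above 0 in pairs 1 and 3 and below 0 in pairs 2 and 4, with medians of 0.10, -0.15, 0.21 and -0.25. In pair 4, where the median of all members was lowest, 2 of the 35 bright genes and 18 of the 42 dimmer ones were above 0. Among the dimmer genes, a limit chosen after seeing the data, the median ratio was 0.00 and the large minus small difference by pair was 0.07, -0.12, 0.15 and 0.03.

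**Figure D4:**
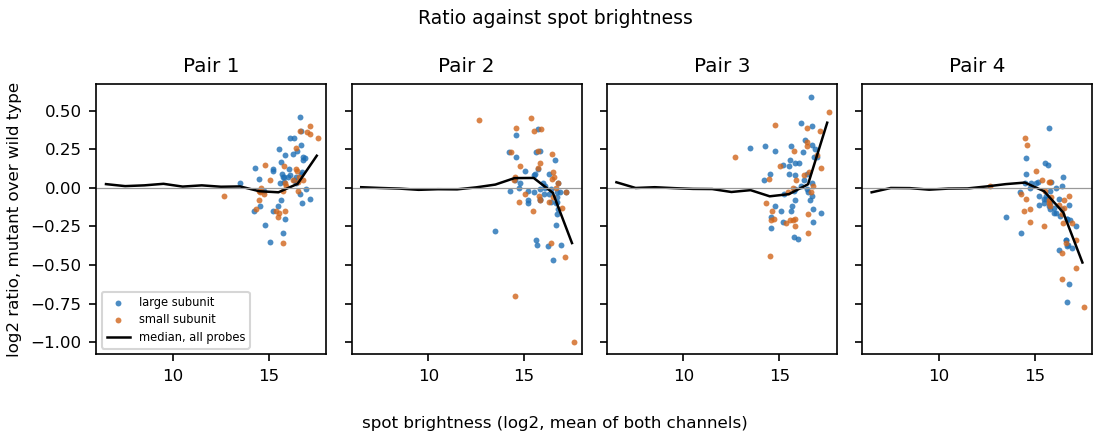
Log2 ratio of mutant over wild type against spot brightness (log2, mean of both channels) of the 77 ribosomal protein genes in each pair, large subunit blue and small subunit orange; the black line joins the medians of all tested probes in steps of 1. Line and genes bend upward at the bright end in pairs 1 and 3 and downward in pairs 2 and 4, reaching medians of 0.208, -0.358, 0.422 and -0.484 for all probes of brightness 17 to 18.

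Saturation, which would draw a ratio toward 0, was not seen in the members. None of their 176 spots was marked as saturated in either channel of any array, against 26, 20, 22 and 21 of the 59305 non-control spots in Cy5 on arrays 1 to 4 and 0 in Cy3. The brightest member spot in Cy5 was Rps14 on each array, at 36.6%, 63.3%, 48.4% and 70.6% of the scanner's saturation value for that channel, and in Cy3 the brightest member reached at most 14.7% of that channel's value. The median raw Cy5 value of the member spots was 42735, 74400, 52180 and 77907 on arrays 1 to 4. In Cy3 it was 16348, 26697, 23507 and 29539. Member spots were thus brighter on arrays 2 and 4 in both channels, where Cy5 carried the wild type and Cy3 the mutant. By subunit the median raw Cy5 value was 39030, 68782, 49778 and 70862 for the large and 53817, 98126, 67800 and 106145 for the small subunit, with no saturated spot in either.

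Genes with several probes give a measure of how far a single probe can be read. Of the 77 genes, 51 had 2 or more tested probes and 26 had 1. The mean ratios of the probes of a gene spanned 0.07 in the median and at most 0.31, and in 17 genes the probes differed in sign. Rpl17, a protein at the exit of the peptide tunnel, had 7 tested probes with means between -0.03 and 0.13; the highest was the 1 member probe whose mutant levels all lay above the wild-type levels (background 0.631%), at 15.35 to 15.38 against 15.16 to 15.27. Rpl23 had a probe printed in 10 spots, whose mean ratios were -0.06, 0.28, 0.02 and -0.07 and whose spots within an array had SDs of 0.07 to 0.10. The spread between pairs for that probe was larger than the spread between its spots.

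Among the genes whose probes differed most were Rpl14, Rps15a and Rpsa. In Rpl14 and Rps15a the dimmest probe had the highest ratio. Rps15a, whose start is shown above, had a dim probe at 8.98, 9.65, 9.33 and 9.62 in the mutants and 8.91, 9.21, 9.01 and 9.20 in the wild types, a mean ratio of 0.31 ± 0.17 (SD, n = 4 pairs; limma adjusted p = 0.811), which is the 1 member probe with an unadjusted p under 0.05. Its brighter probes had means of 0.01 and 0.12. Rpl14 had 0.25 by its dim probe and -0.06 by its bright one. The 4 probes of Rpsa, the small subunit protein also described as a laminin receptor precursor, had means of -0.04, 0.03, 0.14 and 0.18. Ribosomal protein genes have many processed pseudogenes of nearly the same sequence, and which transcripts a probe reads was not tested, so the values of single probes are uncertain.

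The stalk, which recruits the translation factors that split GTP, was near 0. Rplp1 had ratios of 0.05, 0.09, 0.05 and -0.07, and Rplp2 had 0.03, -0.01, -0.01 and -0.14. Rplp0 had 0.32, -0.04, 0.31 and -0.18 by its brightest probe, mean 0.10 ± 0.25 (SD, n = 4 pairs). This brightest probe of Rplp0 followed the dyes. Its other tested probes did not, with ratios of 0.18, 0.07, 0.27 and -0.11 for one and 0.17, 0.14, 0.13 and 0.04 for the other. The partners Rplp1 and Rplp2 stayed within 0.14 of 0 in every pair. Rps6, the target of the S6 kinases downstream of mTOR, had ratios of 0.01, 0.38, 0.05 and -0.06, so its mean of 0.10 came mostly from pair 2. Rps27a, made as a fusion with ubiquitin, had 0.11, 0.22, 0.30 and -0.17.

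Paralogues of limited tissue range were at the edge of detection. Rpl10l and Rpl39l, known from testis, and Rpl3l, known from striated muscle, were the 3 member genes that were not tested. Rpl39l and 1 probe of Rpl10l were well above background in 0 of 8 mice, the other probe of Rpl10l in 2 mutants and 2 wild types, and Rpl3l in 2 mutants and 0 wild types. Their usual counterparts were measured in all mice: Rpl10 had a mean ratio of -0.04, Rpl39 of 0.05 and Rpl3 of 0.04. Rps27l, a paralogue induced by p53, had ratios of -0.05, 0.44, 0.20 and 0.01 and a mean of 0.15 ± 0.22, and Rps27 had -0.02 ± 0.09 (SD, n = 4 pairs). Rpl32l had a mean of -0.03, and Rps4x, the X-linked copy, of -0.01. By their brightest probes Rpl6 and Rps29 were among the steadiest members, each with an SD over the pairs of 0.04. The other tested probes varied more, with SDs of 0.30, 0.32 and 0.34 for Rpl6 and of 0.16 and 0.21 for Rps29.

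Medians were close for members with and without a tract at the annotated start. The 14 genes with a tract at the annotated start had a median ratio of -0.03 (0.05, -0.02, 0.02 and -0.14 by pair), and 43 tested genes with windows but no tract exactly there -0.01 (0.03, -0.03, 0.03 and -0.08). In both, pair 4 was lowest. Among the genes shown, the mean ratio was 0.12 for Rps15a, 0.10 for Rps6 and 0.05 for Rpl38, and -0.02 for Rps27, -0.03 for Rplp2 and Rpl32l, -0.06 for Rpl14 and -0.12 for Rps21.

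No difference between the sexes in the mutant over wild-type ratio was called. The male minus female difference of the ratio ran from -0.39 to 0.33 over the 77 genes, with a median of -0.07. No member probe passed the limma test of the difference at an adjusted or unadjusted p of 0.05 (background 0.0% adjusted and 2.78% unadjusted). With 2 pairs of each sex this test has 1 residual degree of freedom for each probe, so it could show only large differences.

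The wider machinery was read from lists of genes, in none of which a gene passed an adjusted p of 0.05 in limma (background 0.0131% of named genes). Of 37 translation initiation factors, 26 had a mean above 0 and 11 below, beside 7908 of 15283 named genes above 0. Their median was 0.04, but -0.04 with median centring in place of loess. At an unadjusted limma p under 0.05, 1 initiation factor was higher (background 3.18%). That gene was Eif2s2, the beta subunit of the initiation factor that brings the initiator transfer RNA, with ratios of 0.42, 0.39, 0.93 and 0.76 and a mean of 0.63 ± 0.26 (SD, n = 4 pairs; limma adjusted p = 0.702). All 4 mutants were above their wild-type partners, as in 5 of the 37 initiation factors with Eif2s2 counted (background 6.25% of named genes). The 12 elongation and termination factors had a median of 0.02, and 9 other genes with TOP mRNAs 0.02; among the latter, Npm1, a nucleolar chaperone, had a mean of 0.31 (limma adjusted p = 0.811) and Tpt1 0.02.

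For making ribosomes, 14 genes of ribosomal RNA synthesis had a median of -0.01 and 82 ribosome assembly factors of 0.01, 42 of them above and 40 below 0. Pes1, an assembly factor of the large subunit, had ratios of 0.76, 0.49, 0.98 and -0.40 (limma adjusted p = 0.811). It was the 1 assembly gene with an unadjusted limma p under 0.05 (background 3.18% of named genes higher). Bysl, which acts on the small subunit, had a mean of -0.25 with all 4 pairs below 0, as had 4 of the 82 assembly genes with Bysl counted (background 5.44%). The 16 genes of ribosome hibernation, recycling and quality control had a median of -0.00, and the 25 chaperones of ribosomal proteins and regulators of TOP mRNAs 0.00. In that last list 2 of the 25 genes were higher at an unadjusted limma p under 0.05 (background 3.18% of named genes). Eif4ebp1, the inhibitor of cap-dependent initiation that mTOR controls, had ratios of 1.11, -0.38, 1.12 and 0.75, a mean of 0.65 ± 0.71 (SD, n = 4 pairs; limma adjusted p = 0.77), and Pdcd2, a chaperone of Rps2, had 0.10, 0.55, 0.46 and 0.21 (limma adjusted p = 0.811). Larp1 itself had a mean of 0.16, above 0 in all 4 pairs, as were 2 of the 25 genes with Larp1 counted (background 6.25%). As normalized here, the medians of these translation and ribosome lists lay within 0.04 of 0; over the alternatives they ran from -0.07 (elongation and termination factors, median centring) to 0.16 (other TOP genes, authors' deposited table). As normalized here, the cerebellar markers were at 0.99 and the excitatory neuron markers at -0.55.

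**Figure D5:**
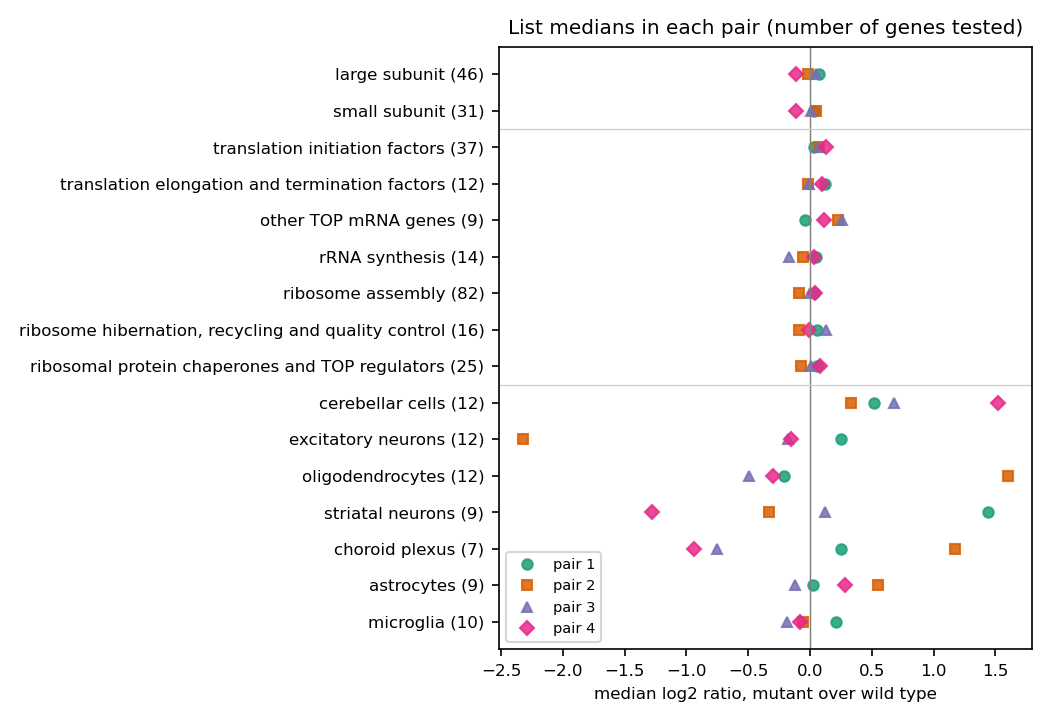
Median log2 ratio of mutant over wild type in each pair (symbol) for the ribosomal protein subunits (top), other lists of translation and ribosome genes (middle) and marker lists of brain cell types and regions (bottom), with the number of genes tested in brackets. Large and small subunit medians lie between -0.11 and 0.07, and those of excitatory neuron markers between -2.32 and 0.25.

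Set beside the cell markers pair by pair, the ribosomal protein medians moved little. In pair 2 the excitatory neuron list was at -2.32 and the oligodendrocyte list at 1.6, and the ribosomal protein median was -0.01. In pair 4 the cerebellar list was at 1.52 and the striatal list at -1.28, and the ribosomal protein median was -0.11, its lowest value. In pairs 1 and 3, where the ribosomal protein median was 0.05 in each, the excitatory list was at 0.25 and -0.18, and the oligodendrocyte list at -0.21 and -0.49. The part of tissue composition in these small member differences was not tested.

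Ribosomal proteins encoded under other names stood with the members. Of the 10 names on that list, which also holds a binding protein of Rps19, 7 were tested, with a median of 0.02. Rack1, a signalling scaffold on the small subunit, had ratios of 0.36, -0.43, 0.56 and -0.24, so the mouse in Cy5 was the higher in each pair. Fau, which gives a small subunit protein fused to a ubiquitin-like one, had a mean of -0.03, and Rpl22l1, the paralogue of Rpl22, 0.16. Rps3a1, whose symbol falls outside the rule, had ratios of 0.10, 0.22, 0.03 and 0.18 and a mean of 0.14 ± 0.08 (SD, n = 4 pairs; limma adjusted p = 0.869).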

How the data were processed

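Agilent 2-colour arrays were quantified by the submitters in Agilent Feature Extraction (version 10.7.3.1, from the file headers). The deposited intensity values used were each spot's median pixel intensity and its local background median in each channel; a mean spot intensity had been planned and the median took its place. The deposited log10 ratio is processed Cy5 over processed Cy3, per the file headers. The deposited spot marks (other values of 0 or 1) give saturation, outliers and whether a spot was well above background, per the file headers. The authors' deposited table holds values, read here as log2, whose scale and centring are not stated in the sources used here. Over 10628 bright probes each column correlated with the scanner values at 0.9985 or more after quantile normalization and centring of each probe. For those probes this settles the direction of the values and that they are centred by probe. A correlation does not change with the scale or with a shift of a whole column, so these 2 remain unsettled. The column medians of the authors' table for pairs 1 to 4 were -0.0271, 0.0199, -0.0142 and -0.00238 in the mutants and -0.0496, 0.0364, -0.00529 and 0.0345 in the wild types.

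Spot medians were corrected with normexp (offset 50) and normalized by loess within arrays, with control spots at weight 0. Outlier spots were left out and spots of a probe averaged; levels of single mice followed Aquantile normalization. limma 3.58.1 in R 4.3.3 fitted the 4 ratios with a dye term (2 residual and 3.65 prior degrees of freedom), adjusted by Benjamini-Hochberg over 33300 probes. The fit was tested on simulated data with known changes. The 4 mice of a genotype are biological replicates per the labels, and the number of arrays limits the precision. Ratios are within an array, so each shared number is a block: deviations from the genotype means of the 2 mice of an array correlated at 0.791, 0.314, 0.494 and 0.74, against highest values with another number of 0.388, 0.69, 0.388 and 0.69, so pair 2 correlated better with another number than with its own; the block rests on the shared array, not on these values. Probes were named by accession through RefSeq (GRCm38.p6), and 28172 probes had no name there. Members and gene lists were chosen with earlier results of these data known. Named genes were those of 1 sign in all pairs, the 5 of largest and 3 of smallest SD, paralogues, stalk and named single members, the 4 whose probes differed most, and from each list the 2 of smallest p; Rpl38, Rpl17, Tpt1, Larp1, Rack1, Fau and Rpl22l1 were added after their values were seen. A few genes that the rule names are not reported here singly; they remain in the counts and medians.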

Additional observations from a re-analysis of the deposited data

Results flagged for a closer look

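In 2 of the values checked over the 4 pairs, a single pair stood far from the other 3. The ratio of Rpl39 was 0.24 in pair 3 and within 0.02 of 0 in the others, a gap of 0.92 of its whole range. The ratio of Rpl6 was 0.08 in pair 1 and between -0.00 and 0.01 in the others, a gap of 0.853 of its range. Both gaps are past Dixon's 95% limit for 4 values, a limit that chance passes in about 1 in 20 groups, and 61 values were checked.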

How the results depend on the processing

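The count of ribosomal protein probes called was 0 in all settings run, and the median ratio stayed between -0.04 and 0.03 except with median centring in place of loess, where it was -0.13; all tested probes then had a median of -0.04, leaving -0.09 relative to them. Leaving out 1 pair gave medians from -0.04 to 0.03, large minus small differences from -0.01 to 0.04 and 0 calls. Of 27 named member genes, 10 changed sign with median centring: Rpl6 to -0.11, Rpl7a to -0.01, Rplp1 to -0.11, Rps29 to -0.13, Rpl3 to -0.09, Rpl39 to -0.05, Rplp0 to -0.03, Rps27a to -0.02, Rps6 to -0.04 and Rpsa to -0.12. The authors' table changed the sign of 4, Rpl41 to 0.03, Rplp2 to 0.06, Rpl10 to 0.05 and Rps27 to 0.02. Values without 1 pair come from the fit with the dye term. In it a pair left alone in its dye orientation weighs as much as the other pairs together, so they are not plain means. Leaving out pair 1, 2, 3 or 4 changed the sign of 2, 5, 2 and 2, among them Rps2, fitted at 0.03 without pair 2 and -0.48 without pair 4. The cause of these changes was not tested, and none of these genes was called in any setting. The initiation factor median was -0.04 with median centring and 0.09 without pair 2, the elongation and termination factor median -0.07 and 0.10, and the median of other TOP genes 0.16 in the authors' table. Treating the channels separately with no replicate block gave 0 calls, a median of -0.01 and a subunit difference of 0.02, so the pairing changed no call. Ratios near 0 have an interval of about 0.27 to either side, and smaller differences could not be shown with 4 pairs.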
